A study of Mus musculus with 5 samples.

Results

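Open chromatin was followed from hematopoietic progenitors (HP) to the macrophages (MAC) grown from them. The DNaseI hypersensitive sites (DHSs) listed in HP only, in MAC only or at both stages were counted. They were placed and described by their sequence and nearest gene. The members were all regions formed by the HP and MAC site lists: every site was replaced by 500 bp centred on it, neighbours overlapping by a share of at least 0.25 of that length were joined, and sites on chromosome M (4 of the 17734 HP sites and 0 of the 37456 MAC sites) were left out. This gave 43678 regions, against 68842 when the lists of all 5 stages of the series were merged in the same way. Of these, 6222 were in the HP list only, 25948 in the MAC list only and 11508 in both. All cells came from a mouse embryonic stem (ES) cell line that carries a GFP reporter of Brachyury, differentiated in vitro. HP cells were sorted as CD41+. MAC cells came from the terminal differentiation of CD41+ cells and were sorted as CD11b+. No genotype, drug or other treatment differed between these groups according to the labels, and both are models grown in culture from 1 reporter line.

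Each stage had 1 list of positions. The MAC label names a Rep1 and a Rep2 but comes with 1 list, and whether it pools the reads of these replicates or joins or intersects their sites is not given in the sources used here. What the length of the MAC list and the MAC-only counts mean against HP depends on this. No spread between replicates could be computed for either stage, so no test was made and every interval below covers counting error only. The lists hold neither heights nor read counts, so their depth is unknown from the files. A region absent from a list is a region with no listed site, which is not the same as closed chromatin, and a site open in a few cells cannot be told apart from a weak site in all of them.

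DNase I cuts chromatin where nucleosomes are displaced, which happens mostly at promoters and at the enhancers that transcription factors occupy. In blood development, RUNX1, GATA2, TAL1, LMO2 and the ETS factor FLI1 are known as regulators of the stem and progenitor program. PU.1 (encoded by Spi1), C/EBP factors, IRF8 and the AP-1 factors are known for the regulatory program of macrophages, where PU.1 binds with partners at many enhancers far from promoters. CD41, the surface protein used to sort HP, is encoded by Itga2b and marks early blood progenitors and megakaryocytes, and CD11b, encoded by Itgam, is an integrin of the myeloid lineage.

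A set of 10 of the regions discussed below is shown first, as examples of each class at genes of the HP and MAC programs. Some carry matches that were more frequent in another class. Each sequence is 200 bases of the plus strand of GRCm38 (mm10), read from the RefSeq assembly, and capitals mark every match, on either strand, to the consensus of PU.1 (GAGGAAGT), C/EBP (TTGCNNAA), AP-1, RUNX, GATA, TEAD or the E-box that TAL1 dimers are known to bind. The AP-1 consensus was spelled TGANTCA, that of RUNX, the factor family of blood formation, was TGTGGTT, and that of the zinc finger factors of the GATA family was AGATAA. For the TEAD factors of the Hippo pathway the consensus was CATTCCA, with T also allowed as the last base. The TAL1 type of E-box was spelled CAGATG. A match is a description of the letters and not evidence of binding. The HP-only regions come first: the Itga2b promoter region (chr11:102470192-102470391), an intron of Runx1 (chr16:92822131-92822330), an intron of the GATA cofactor gene Zfpm1 (chr8:122313434-122313633) and an intergenic region 23.0 kb upstream of Tead1 (chr7:112656230-112656429).
Itga2b: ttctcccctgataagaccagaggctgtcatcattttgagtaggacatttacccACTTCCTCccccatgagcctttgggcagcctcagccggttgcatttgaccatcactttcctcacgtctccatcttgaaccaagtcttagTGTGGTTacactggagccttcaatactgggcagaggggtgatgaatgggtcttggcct
Runx1: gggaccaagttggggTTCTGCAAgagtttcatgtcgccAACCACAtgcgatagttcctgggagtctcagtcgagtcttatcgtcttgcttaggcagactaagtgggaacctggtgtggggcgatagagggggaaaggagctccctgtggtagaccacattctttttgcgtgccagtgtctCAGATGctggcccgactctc
Zfpm1: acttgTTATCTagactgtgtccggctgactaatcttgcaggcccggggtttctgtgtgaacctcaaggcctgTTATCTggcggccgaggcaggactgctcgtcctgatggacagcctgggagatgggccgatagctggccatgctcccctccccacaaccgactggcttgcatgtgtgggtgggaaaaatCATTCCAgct
Tead1: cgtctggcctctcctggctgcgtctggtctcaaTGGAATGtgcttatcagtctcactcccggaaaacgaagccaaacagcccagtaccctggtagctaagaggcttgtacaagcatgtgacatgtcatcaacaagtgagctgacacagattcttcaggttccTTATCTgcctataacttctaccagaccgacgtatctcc

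Of the MAC-only regions, the following are shown because they lie at genes of the macrophage program: an intron of Itgam (chr7:128089214-128089413), a region 2.34 kb upstream of the interleukin gene Il1b (chr2:129373490-129373689), an intergenic region 26.3 kb downstream of the Cebpb TSS (chr2:167715101-167715300) and one 24.8 kb downstream of the Irf8 TSS (chr8:120763375-120763574).
Itgam: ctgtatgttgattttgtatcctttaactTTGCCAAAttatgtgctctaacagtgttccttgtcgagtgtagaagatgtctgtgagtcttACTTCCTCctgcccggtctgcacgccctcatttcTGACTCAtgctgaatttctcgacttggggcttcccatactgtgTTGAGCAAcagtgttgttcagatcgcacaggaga
Il1b: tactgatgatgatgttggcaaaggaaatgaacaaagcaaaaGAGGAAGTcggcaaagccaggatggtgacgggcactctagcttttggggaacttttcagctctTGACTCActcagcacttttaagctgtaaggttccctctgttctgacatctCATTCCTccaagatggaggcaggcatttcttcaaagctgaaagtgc
Cebpb: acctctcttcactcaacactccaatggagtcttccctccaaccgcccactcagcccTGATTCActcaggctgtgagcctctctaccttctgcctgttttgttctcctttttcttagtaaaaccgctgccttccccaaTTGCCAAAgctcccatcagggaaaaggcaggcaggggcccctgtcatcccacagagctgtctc
Irf8: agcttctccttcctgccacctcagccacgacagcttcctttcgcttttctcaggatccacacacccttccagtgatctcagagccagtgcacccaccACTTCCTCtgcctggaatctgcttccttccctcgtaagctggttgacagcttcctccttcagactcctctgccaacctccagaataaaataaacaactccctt

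The last pair was listed at both stages: an intron of Gata2 (chr6:88203094-88203293), with an E-box match starting at base 92 and a GATA match at base 106, and an intron of Spi1 (chr2:91101347-91101546), with GATA matches starting at bases 93 and 105.
Gata2: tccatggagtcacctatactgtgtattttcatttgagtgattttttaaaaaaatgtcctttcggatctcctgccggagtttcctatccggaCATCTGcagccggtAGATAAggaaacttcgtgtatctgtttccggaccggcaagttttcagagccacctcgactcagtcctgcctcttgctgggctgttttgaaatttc
Spi1: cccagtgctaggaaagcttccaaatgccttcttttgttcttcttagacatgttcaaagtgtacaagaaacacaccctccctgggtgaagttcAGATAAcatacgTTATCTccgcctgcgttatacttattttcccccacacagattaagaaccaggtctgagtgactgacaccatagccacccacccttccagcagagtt

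To determine how much of the progenitor pattern was kept, the regions of the HP list were counted by class. Of the 17730 HP regions, 64.9% were also in the MAC list (95% Wilson interval 64.2 to 65.6), and of the 37456 MAC regions 30.7% were also in the HP list (30.3 to 31.2). With the MAC list cut to its 17730 widest sites, as many as in HP, 48.5% of either list was shared. The MAC list was the longer and its sites were narrower, with a median width of 600 bp against 900 bp in HP, so that it covered 22.8 Mb and the HP list 15.4 Mb. Every shared region was made of 1 HP and 1 MAC site. The middles of these pairs lay a median of 67 bp apart, and the HP site was the wider of the pair in 70.9% of the shared regions. A further 424 HP-only regions (6.81%) and 506 MAC-only regions (1.95%) overlapped a deposited site of the other list without enough window overlap to be joined.

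Promoter regions were mostly listed at both stages and distal regions mostly at a single stage. A region was called promoter if its centre lay within 2 kb of the transcription start site (TSS) of a protein-coding gene, proximal up to 20 kb and distal beyond. Of the promoter regions of HP, 83.2% were also in MAC (interval 82.5 to 83.9), against 45.9% of the proximal (44.3 to 47.5) and 39.3% of the distal regions (37.8 to 40.8). Seen from MAC, 78.3% of the promoter regions had been listed in HP, but 15.5% of the proximal and 10.4% of the distal ones. Promoters made up 70.6% of the shared regions (69.8 to 71.5), 26.4% of the HP-only regions (25.3 to 27.5) and 8.68% of the MAC-only regions (8.34 to 9.02), against 3.34% of all 500 bp tiles of the genome. The HP-only share exceeded the MAC-only share by 17.7 percentage points (95% Newcombe interval 16.5 to 18.8). Among sites no narrower than the median of their list the promoter shares were 53.7% in HP-only and 14.8% in MAC-only regions. Here, and wherever a list was cut by width, the classes were set again on the sites kept. A kept site whose partner in the other list was cut then counts as exclusive.

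**Figure D1:**
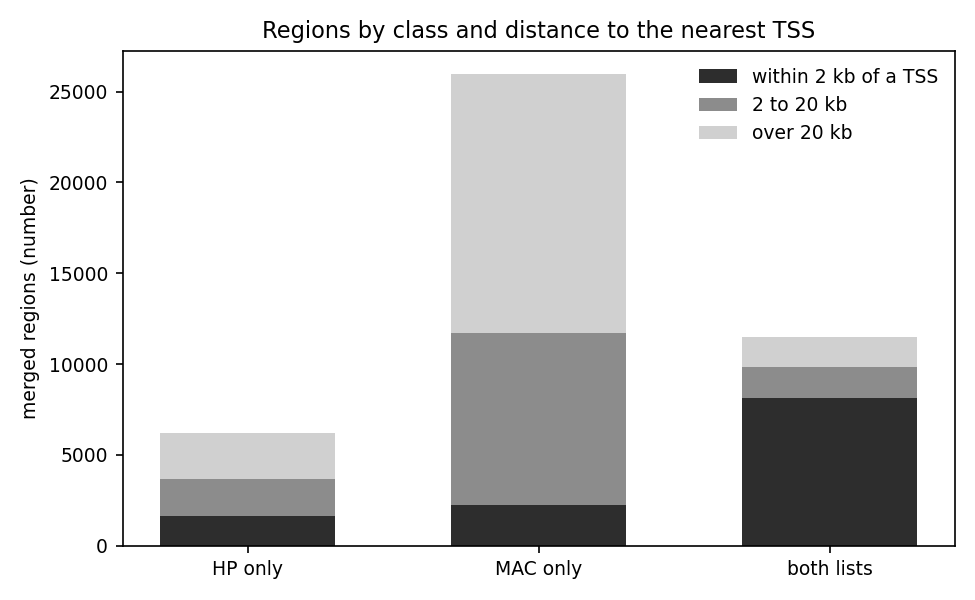
Number of merged regions (vertical axis) in the HP list only, the MAC list only and both lists, divided by the distance of the region's centre to the nearest protein-coding TSS. Of 25948 MAC-only regions 2251 lay within 2 kb of a TSS, whereas 8130 of the 11508 shared regions did.

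The MAC-only regions lay farther out and in introns. Beyond 2 kb their median distance to a TSS was 27.9 kb, against 24.4 kb for HP-only and 19.2 kb for shared regions, and 15.3% of all MAC-only regions were over 100 kb from a TSS, against 10.3% and 2.82%. Introns held 54.1% of the MAC-only, 44.5% of the HP-only and 21.3% of the shared centres, where 41.2% of tiles are intronic. CpG-rich sequence, defined as a GC share of at least 0.5 and an observed to expected CpG ratio of at least 0.6 in the central 500 bp, marked 65.4% of shared regions (64.5 to 66.3), 18.9% of HP-only (17.9 to 19.9) and 2.83% of MAC-only regions (2.63 to 3.04), against 0.703% of tiles. Among sites no narrower than the median of their list these shares were 82.8%, 43.0% and 8.60%. Among promoter regions the CpG-rich share was 86.0% in shared, 59.1% in HP-only and 25.8% in MAC-only regions. Most promoter regions listed in MAC alone were therefore not CpG-rich. Beyond 2 kb the median GC content was 46.8% in MAC-only, 50% in HP-only and 52% in shared regions. Repeat-masked bases made up on average 14.3%, 11.5% and 11.3% of these windows, against 36.9% of the tiles over 2 kb from a TSS.

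The share of sites found in both lists moved with site width. HP sites of 300 to under 500 bp were shared in 33.2% of cases, those of 900 to under 1200 bp in 81.0% and those of 1200 to under 1600 bp in 92.8%. For MAC sites of the same widths the shares were 13.5%, 62.7% and 71.05%. In both lists the share was lower among sites of 1600 bp or more, at 72.3% of 321 HP sites and 57.7% of 241 MAC sites. The part of wide sites that overlap the other list without being joined in this was not tested. The widths of exclusive sites varied little with position: the median MAC-only width was 500 bp at promoter, proximal and distal regions alike, and the HP-only medians were 700, 600 and 600 bp.

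**Figure D2:**
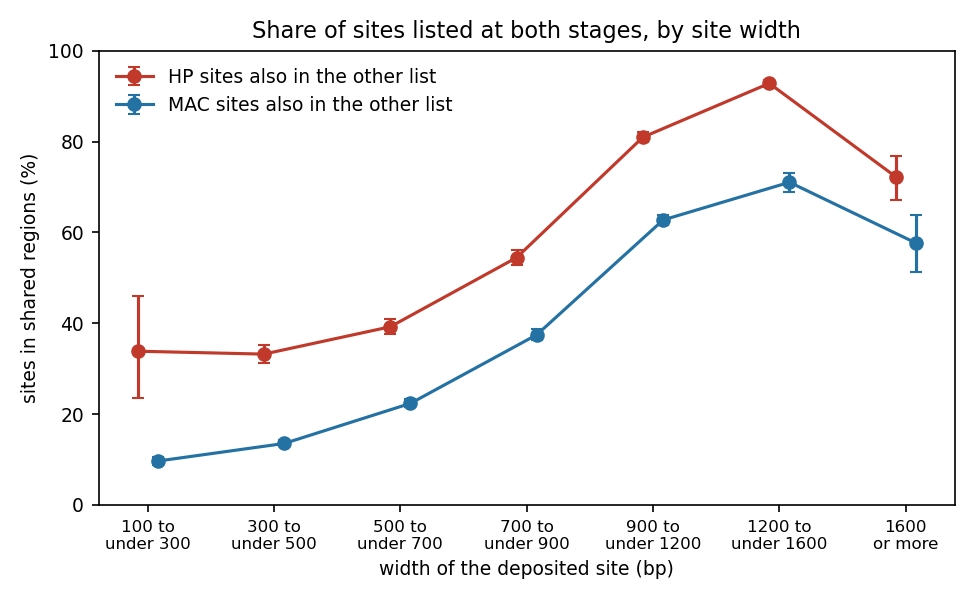
Share of sites in regions listed at both stages (vertical axis, %) by the width of the deposited site (horizontal axis, bp), for the HP list and the MAC list, with 95% Wilson intervals as bars. The share rose from 33.2% to 92.8% in HP and from 13.5% to 71.05% in MAC between the widths of 300 and 1600 bp and was lower for the widest sites.

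Most HP-only regions had a site in an earlier list, though less often than shared regions did, and most MAC-only regions had none. The lists of mesoderm (MES), hemangioblast (HB) and hemogenic endothelium (HE), the sorted stages that precede HP, were used here to date the regions. Of the HP-only regions, 75.01% were in at least 1 earlier list (73.9 to 76.1) and 60.9% were in HE. Of the MAC-only regions, 17.6% (17.2 to 18.1) were in an earlier list and 14.3% in HE, and of the shared regions 96.4% and 88.0%. At promoters 88.8% of HP-only and 38.2% of MAC-only regions had an earlier site. Beyond 2 kb, 30.9% of HP-only regions were in HE but in neither MES nor HB, against 27.6% of shared and 9.51% of MAC-only regions. Promoter regions listed at both HP and MAC had an earlier site in 99.3% of cases, and 87.4% were in all 3 earlier lists.

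From an HP-only region the nearest MAC-only region lay a median of 16.7 kb away, and the nearest region of the MAC list, shared regions included, 10.4 kb. Of the 9955 genes that were nearest to at least 1 region over 2 and up to 100 kb from their TSS, 2013 had both HP-only and MAC-only regions, 1000 had HP-only without MAC-only and 6332 had MAC-only without HP-only regions.

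To find sequence features that distinguish the classes, 29 consensus motifs were sought, on either strand, over the middle 500 bp of each of the 23697 MAC-only, 4582 HP-only and 3378 shared regions over 2 kb from a TSS. In 8 motifs the share of regions with a match was higher in MAC-only than in HP-only regions with a 95% interval of the difference above 0, in 14 it was higher in HP-only regions and in 7 the interval held 0. With the letters of each consensus reversed, which keeps the base composition, the counts were 9 and 3. Reversed letters therefore also differed between the classes, and the size of each difference is given with that of its reversed form where it matters.

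PU.1, an ETS factor required for macrophage development, had a match in 14.2% of MAC-only regions (13.8 to 14.7) and 4.56% of HP-only regions (3.99 to 5.20), a ratio of 3.12. Shared regions were in between at 9.09% and all tiles beyond 2 kb were at 3.04%. The reversed consensus was found in 3.62% and 3.80%. The composite of PU.1 and IRF sites (GAANTGAAA), which can share letters with a PU.1 match, was found in 8.04% of MAC-only and 2.47% of HP-only regions, and the interferon response element (AAACNGAAA), bound by IRF and STAT factors, in 5.68% and 3.34%. The tiles were at 5.11% for the composite and 5.39% for the response element, so that HP-only regions lay below the tiles for both, and MAC-only regions were above them for the composite and near them for the response element. C/EBP, the family of C/EBP-alpha and C/EBP-beta, had a match in 29.3% and 16.7%. HP-only regions were again below the tiles, at 22.1%. The tiles beyond 2 kb had 41.5% GC, less than the median of every class, so a share below the tiles is not read as depletion. AP-1, the dimers of JUN and FOS proteins, was found in 34.0% of MAC-only and 24.2% of HP-only regions and in 30.8% of shared regions, all above the tiles at 14.4%. Its reversed form also differed, at 15.7% against 12.5%. A PU.1, C/EBP or AP-1 match was present in 61.4% of MAC-only (60.8 to 62.0), 39.6% of HP-only (38.2 to 41.0) and 49.0% of shared regions.

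GATA, the motif of GATA1 and GATA2, was the reverse case, with a match in 40.1% of HP-only regions (38.7 to 41.5) and 21.3% of MAC-only regions (20.8 to 21.8). Shared regions were at 22.4% and the tiles at 30.4%. The reversed consensus went the other way, at 15.7% in HP-only and 22.1% in MAC-only regions. TEAD, the DNA-binding partner of the Hippo pathway coactivator YAP, was found in 27.6% of HP-only (26.3 to 28.9) and 17.2% of MAC-only regions, with shared regions at 19.5% and tiles at 18.4%. The E-box of the CAGCTG type was found in 35.8% of HP-only and 29.9% of MAC-only regions, and the TAL1 type in 38.9% and 36.7%. The TAL1 type changed direction among sites no narrower than the median of their list, to a difference of 0.82 points (MAC-only minus HP-only) with an interval that held 0. SP (GGGCGGGG), KLF (CCACACCC) and CTCF, the insulator protein, were also more frequent in HP-only than MAC-only regions, at 8.12% against 2.46%, 6.55% against 4.44% and 4.56% against 2.42%. The CTCF difference depended on site width: with the widest MAC sites it was -6.10 points (MAC-only minus HP-only), and among sites no narrower than the median -0.53, with an interval that held 0. The KLF interval also held 0 among these wider sites, at a difference of -0.88 points. The reversed SP letters gave nearly the same shares as SP itself, at 7.11% and 2.39%, and the reversed KLF letters 4.67% and 3.34%. For SP and CTCF the shared regions had the highest share of the 3 classes, at 13.5% and 9.77%.

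RUNX, the motif of RUNX1, which acts in progenitors and in macrophages, did not separate the classes over all regions. It was found in 16.3% of HP-only and 15.5% of MAC-only regions, with an interval of the difference from -1.96 to 0.37 points, and in 14.8% of shared regions against 11.3% of tiles. In 2 of 9 alternative settings RUNX had an interval below 0. These were regions over 20 kb from a TSS, at -1.73 points, and regions that were not CpG-rich, at -1.23. Since its share falls with GC content, it was also read within bands of GC. Below 45% GC it was found in 21.2% of HP-only and 17.1% of MAC-only regions, from 45% to under 50% in 18.3% and 15.7%, and from 50% to under 55% in 16.9% and 13.8%. At 55% GC and above the order turned, at 8.32% and 11.04%. The differences of PU.1, C/EBP, AP-1, GATA and TEAD had the same direction in all 4 bands. From 45% to under 50% GC, PU.1 was at 15.1% in MAC-only against 5.11% in HP-only regions, and GATA at 20.5% against 46.6%.

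**Figure D3:**
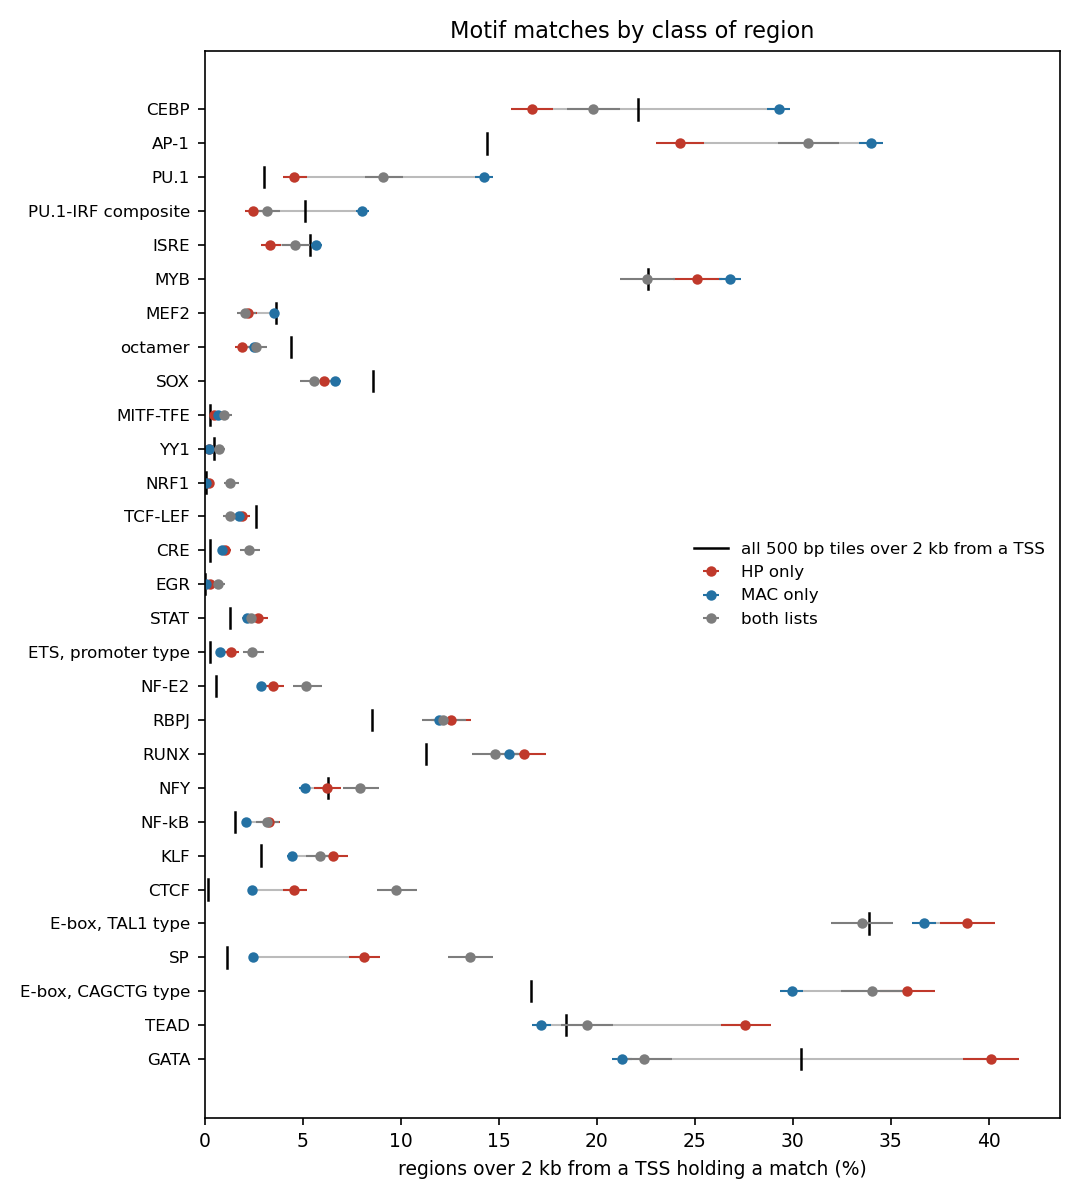
Share of regions over 2 kb from a TSS with at least 1 match to each of 29 motifs (horizontal axis, %), for HP-only, MAC-only and shared regions with 95% Wilson intervals as bars. The short vertical line is the share in all 500 bp tiles over 2 kb from a TSS, and motifs are ordered by the difference between MAC-only and HP-only, from C/EBP at the top to GATA at the bottom.

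The other motifs searched were the promoter type of ETS site (CCGGAAGT), MYB (CAACTG), NF-kB (GGANTTTCC), SOX (ACAATGG), MEF2 (TATTTNTAG), MITF-TFE (TCACGTGA), NRF1 (GCGCATGCG), CRE (TGACGTCA), YY1 (AAGATGGCG), NFY (CCAATCA), STAT (TTCCNGGAA), EGR (GCGTGGGCG), NF-E2 (GCTGAGTCA), the octamer (ATGCAAAT), RBPJ (GTGGGAA) and TCF-LEF (ATCAAAGG). Every NF-E2 match holds an AP-1 match, the ETS promoter type shares letters but no match with PU.1, and the E-box types cannot match at the same bases. Of this group, MYB, MEF2 and the octamer were higher in MAC-only regions, by 1.67, 1.35 and 0.62 points, and the reversed letters of MYB differed by 3.26 points, more than MYB itself. The MYB interval kept to the same side of 0 in 4 of 9 alternative settings and the octamer interval in 6 of 9. For SOX, MITF-TFE, CRE, YY1, RBPJ and TCF-LEF, as for RUNX, the interval held 0. The remaining 7 were higher in HP-only regions by at most 1.15 points, the NF-kB difference (2.13% against 3.27%). Of these, the interval stayed on the same side of 0 in 9 of 9 alternative settings for NF-kB, 8 for NFY and the ETS promoter type, 7 for EGR and NF-E2, 6 for NRF1 and 5 for STAT.

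For 6 motifs the density of matches was also read along the regions. Within 100 bp of the middle of MAC-only regions PU.1 had 0.516 matches per kb, 8.42 times its density in the flanks, and C/EBP 0.914 per kb (2.13 times). PU.1 was also denser at the middles of shared regions, at 3.80 times the flanks, and of HP-only regions, at 1.82 times. AP-1 was denser at the middles of every class, with 1.28 matches per kb in MAC-only (4.04 times the flanks), 1.21 in shared (4.33 times) and 0.759 in HP-only regions (2.53 times). At HP-only middles GATA reached 1.44 matches per kb (2.81 times the flanks) and TEAD 0.828 (2.18 times). At MAC-only middles GATA and TEAD were below their flanks, at 0.674 and 0.905 times, and C/EBP was below its flanks at HP-only middles, at 0.822 times. RUNX was above its flanks at the middles of all 3 classes, at 1.69 times in HP-only, 1.55 in MAC-only and 1.46 in shared regions.

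**Figure D4:**
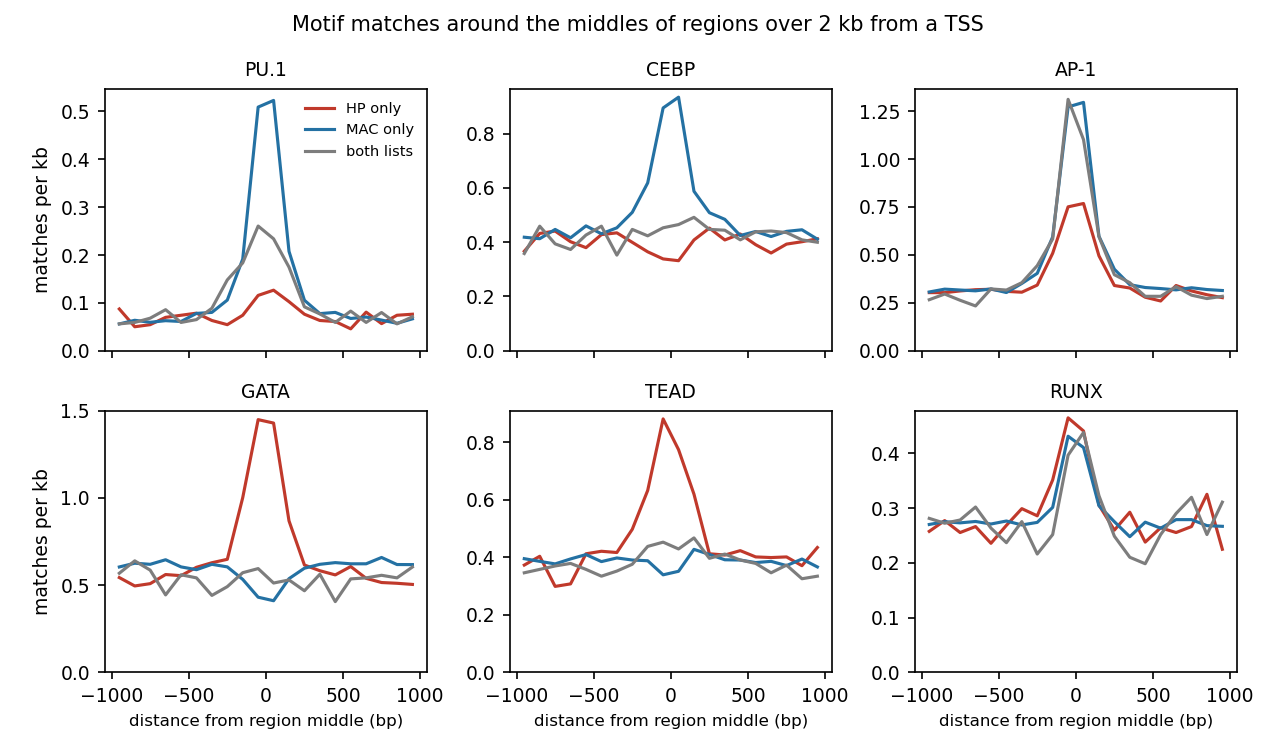
Matches per kb (vertical axes, each with its own scale from 0) in bins of 100 bp by distance from the region's middle (horizontal axis, bp), for 6 motifs in HP-only, MAC-only and shared regions over 2 kb from a TSS. AP-1 and RUNX, and to unequal extents PU.1, are denser at the middles than in the flanks of all 3 classes, while the GATA and TEAD densities are highest at HP-only middles and those of PU.1 and C/EBP at MAC-only middles.

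At promoter regions the picture differed in part. PU.1 was at 10.8% of MAC-only and 2.87% of HP-only promoter regions, C/EBP at 23.1% and 9.63% and AP-1 at 20.9% and 8.66%, the same direction as beyond 2 kb. RUNX, which held 0 beyond 2 kb, was at 11.2% and 5.98%, a difference of 5.26 points (3.50 to 6.99). The shares over all tiles were 3.04% for PU.1, 22.0% for C/EBP, 14.3% for AP-1 and 11.2% for RUNX, so that for C/EBP and RUNX the MAC-only promoter regions were near the tiles and the HP-only ones below them. The median GC content was 52.4% in MAC-only and 62.2% in HP-only promoter regions, while all tiles had 41.7% GC, so the tiles are an unlike base for these shares. GATA was at 14.0% and 13.4% and TEAD at 13.4% in both, with intervals that held 0. SP matches were found in 40.2% of HP-only and 15.0% of MAC-only promoter regions. The reversed letters, which overlap the SP site as stated above, were found in 37.3% and 13.8%.

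Pairs of motifs in the same region were also counted. PU.1 and C/EBP matches occurred together in 3.54% of MAC-only (3.31 to 3.78) and 0.917% of HP-only regions beyond 2 kb, where the products of the single shares are 4.17% and 0.761%, and GATA with the TAL1 type of E-box in 16.4% of HP-only and 7.36% of MAC-only regions. The products for that pair are 15.6% and 7.81%. GATA with RUNX was found in 7.33% of HP-only (6.61 to 8.12) and 3.52% of MAC-only regions, with products of 6.54% and 3.31%.

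Motif content also varied with presence in HE. HP-only regions beyond 2 kb that were already in HE had a TEAD match in 30.4% (28.7 to 32.1) and the HP-only regions not in HE in 23.4% (21.5 to 25.4). The order was the opposite for RUNX, at 14.7% and 18.8%, while GATA was at 40.2% and 39.9%. MAC-only regions that were in HE had fewer C/EBP matches than those that were not, 23.0% against 30.2%, and more CTCF matches, 6.32% against 1.84%. For CTCF the order was the opposite in HP-only regions, at 3.76% in HE and 5.75% not, and in shared regions, at 8.88% and 13.8%. CTCF matches were also concentrated in narrow sites: they were in 4.24% of MAC-only sites under 400 bp and 0.334% of those of 1000 bp or more, and in 8.33% and 1.11% of the HP-only sites of these widths. GATA in HP-only regions went the other way, from 35.2% under 400 bp to 46.7% at 1000 bp or more.

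To connect regions with genes, each of 21000 protein-coding genes was given a promoter class by whether a deposited site came within 1 kb of any of its curated RefSeq TSSs. Both stages had a site at 9182 genes (43.7%), HP only at 1107 (5.27%), MAC only at 1014 (4.83%) and neither at 9697 (46.2%). These counts moved with the length and width of the MAC list: with the 17730 widest MAC sites alone, 2575 genes were in HP only and 427 in MAC only. Regions over 2 and up to 100 kb from the TSS of their nearest gene were also counted. At least 1 HP-only region was present at 14.3% of all genes, at least 1 MAC-only region at 39.7%, at least 5 MAC-only regions at 4.75% and at least 1 shared region at 11.6%. Genes with a MAC-only promoter site had a mean of 1.90 MAC-only regions, against 1.21 where the promoter was listed at both stages, 1.15 where it was HP-only and 0.563 where it was in neither. Because large intergenic spaces collect more regions, counts of a gene list are also given per Mb of the sequence nearest to its genes, where all genes together had 2.78 HP-only, 13.9 MAC-only and 2.15 shared regions per Mb.

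The sorting markers matched their stages. Itga2b had a promoter site in HP only, a region 1000 bp wide centred 0.281 kb upstream of its TSS and shown above. It carried 1 PU.1 and 1 RUNX match, and the HE list also held it. A pair of further HP-only regions lay 9.12 kb downstream and 17.3 kb upstream, and a CpG-rich region in an intron 2.67 kb downstream was shared, with sites of 900 bp in both lists. Itgam had a promoter site in MAC only, of 600 bp in its first 1 kb, and 4 more MAC-only regions, 13.7 and 11.7 kb upstream and 3.12 and 26.6 kb downstream. No region was assigned to Itgam in HP, and none of its 5 regions was in an earlier list. The region 26.6 kb downstream, shown above, held 2 C/EBP, 1 PU.1 and 1 AP-1 match within 200 bases.

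The other markers of the labelled cells were listed in full for MAC and in part for HP. Of 11 macrophage markers, 11 had a promoter site in MAC and 2 (Cd68 and Cd14) also had it in HP, and together they had 44 MAC-only, 2 HP-only and 5 shared regions. Of 11 progenitor markers, 5 had a promoter site in HP (Itga2b, Kit, Gata2, Tal1 and Pf4) and 3 in MAC (Tal1, Pf4 and Gfi1b). For Gata1, Myb, Cd34 and Gp9, among the genes of progenitors and megakaryocytes, neither list held a promoter site. Markers of other cells that the cultures could hold were also looked up. Of all genes 43.7% had a promoter site in both lists and a further 5.27% in HP only, and the counts of each marker list are to be read against these shares. Endothelial genes had promoter sites in HP at 3 of 6 (Kdr, Pecam1 and Sox17) and in MAC at 1, erythroid genes in HP at 3 of 5 and in MAC at 2, and smooth muscle genes in HP at 2 of 3 and in MAC at 1. Mast cell, lymphoid and pluripotency markers had none in either list at 0 of 9 genes, and of 3 mesoderm markers Pdgfra had a site in MAC. The part that other cells in the sorted HP gate may have in its list was not tested.

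MAC-only promoters were frequent among genes of macrophage surface and scavenger proteins. Of 30 such genes 17 had a promoter site in MAC only, 4 in both, 9 in neither and 0 in HP only, against 4.83%, 43.7%, 46.2% and 5.27% of all genes. The 17 include Csf1r, the receptor for the macrophage growth factor, Adgre1, which encodes F4/80, the scavenger receptor genes Msr1 and Mrc1, the fractalkine receptor gene Cx3cr1 and Trem2. The list had 94 MAC-only, 5 HP-only and 9 shared regions, or 43.9 MAC-only and 2.33 HP-only regions per Mb, where all genes had 13.9 and 2.78. At Csf1r there were 6 MAC-only and 1 shared region beyond 2 kb, the widest of them a MAC-only site of 1400 bp in an intron 2.90 kb downstream of the TSS. Msr1 had 8 MAC-only and 0 other regions. In the list of Fc receptor and complement genes 10 of 12 were in MAC only and 0 in HP only (4.83% and 5.27% of all genes). The 10 were the Fc receptor genes Fcgr1, Fcgr2b, Fcgr3, Fcgr4 and Fcer1g and the genes of the secreted complement proteins C1qa, C1qb, C1qc, Cfp and C3, while of the complement receptor genes C3ar1 was in both and C5ar1 in neither.

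Genes of the sensors and signals of inflammation were next examined. Of 22 Toll-like receptor and signalling genes 9 had a promoter site in MAC only (4.83% of all genes did), namely the receptor genes Tlr1, Tlr2, Tlr4, Tlr5, Tlr6, Tlr9 and Tlr13, Irak1 and the inflammasome gene Nlrp3. Another 9 had it in both (43.7% of all genes did), namely Tlr3, Nod2, Ly96, Myd88, Irak2, Irak4, Traf6, Tirap and Ticam1, and Tlr7, Tlr8, Nod1 and Irak3 were in neither. Tlr4, the receptor for lipopolysaccharide, had 9 MAC-only regions and 0 HP-only regions beyond 2 kb, and its MAC-only promoter site of 1000 bp held PU.1 and C/EBP matches. Inside the gene, 1.26 kb downstream of the TSS, lay a shared region with sites of 300 bp in both lists. Of 26 cytokine and chemokine genes 12 were in MAC only, including Tnf, Il12b, Ccl2, Ccl3, Ccl4 and Cxcl2, 3 in both and 0 in HP only (5.27% of all genes were). For Il1b no site lay within 1 kb of the TSS in either list, but MAC-only regions lay 10.6 kb downstream and 2.34 and 9.64 kb upstream, the second of them shown above, and 1 HP-only region of 800 bp lay 50.1 kb upstream.

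Genes of the lysosome and of lipid handling were counted in the same way. Of 28 lysosome and antimicrobial genes, 15 had a promoter site in both, where 43.7% of all genes had one, among them the cathepsin genes Ctsb, Ctsd and Ctsl and the lysosomal membrane genes Lamp1 and Lamp2, and 7 in MAC only, among them Lyz2 (lysozyme), Ctsk, Ctss and Mpeg1. With 66.4 MAC-only regions per Mb this list had the highest density of the 20 lists, and 27 of its 28 genes had at least 1, as did 39.7% of all genes. Lipid handling genes were in both at 12 of 20 and in MAC only at 5, including Abcg1, Lpl and Plin2. Abca1, the cholesterol exporter gene, had a promoter site in both lists, 13 MAC-only regions and 2 shared regions beyond 2 kb. Of 14 antigen presentation genes, 5 were in MAC only, including the class II regulator gene Ciita and H2-Ab1, and of 18 interferon response genes 3 were, against 4.83% of all genes.

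Factor genes of the macrophage program had many MAC-only regions around them, 40.8 per Mb against 13.9 over all genes. Of 30 such genes 16 had a promoter site in both (43.7% of all genes did), including Spi1, Cebpa, Irf8, Maf and Klf4, 6 in MAC only (Cebpd, Irf5, Irf4, Pparg, Tfec and Bhlhe41) and 1, Nr1h3, in HP only. Over all genes 4.83% were in MAC only and 5.27% in HP only. The list had 137 MAC-only against 12 HP-only regions. Irf8, which ranked among the 10 genes with most MAC-only regions, had 15 of them beyond 2 kb, 2 HP-only regions and 1 shared region. Its promoter region was shared and had sites of 500 bp in HP and 700 bp in MAC. Cebpb had no promoter site in either list, 11 MAC-only regions and 4 shared regions, all but 1 of them downstream. At Spi1, which encodes PU.1, the promoter region was shared, with sites of 700 bp in HP and 600 bp in MAC. A shared region at the upstream alternative TSS had 800 and 700 bp, and the shared intron region shown above was narrower in MAC, at 200 bp against 700 bp. The other regions of the locus were MAC-only sites 1.13 kb upstream and 2.12 and 4.12 kb downstream, and 1 HP-only site of 600 bp 3.59 kb upstream.

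Progenitor factor genes had regions of all 3 classes around them. Of 25 genes 14 had a promoter site in both lists (43.7% of all genes did), including Tal1, Lyl1, Lmo2, Runx1, Ikzf1 and Meis1, 2 in HP only (Gata2 and Hlf), 2 in MAC only (Gfi1b and Fli1) and 7 in neither. Over all genes 5.27% were in HP only, 4.83% in MAC only and 46.2% in neither. The 25 genes had 27 HP-only regions, or 9.35 per Mb, and 63 MAC-only regions, or 21.8 per Mb. All genes had 2.78 and 13.9 per Mb. Runx1, the factor needed to form blood from hemogenic endothelium, had 4 HP-only, 12 MAC-only and 6 shared regions beyond 2 kb. The region at its upstream promoter was MAC-only, with a site of 800 bp and RUNX and interferon response matches, and the region at its downstream, CpG-rich promoter was shared, with 1200 bp in HP and 1000 bp in MAC. The HP-only regions of Runx1 lay 3.71 and 7.11 kb inside the gene and 57.9 and 78.2 kb upstream of it. At Gata2 the CpG-rich promoter region was HP-only with 800 bp, and the shared intron region shown above had 1200 bp in HP and 600 bp in MAC. Kit, the receptor for stem cell factor, had a CpG-rich promoter site of 600 bp in HP only and no other region. At Tal1 a region in a coding exon 5.45 kb from the TSS was HP-only with a site of 1100 bp, while the promoter site was 1400 bp wide in HP and 600 bp in MAC.

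Genes of the Hippo pathway and TEAD targets were the group in which HP-only promoters were most frequent. Of 19 genes, 9 had a promoter site in HP only, 7 in both and 0 in MAC only, against 5.27%, 43.7% and 4.83% of all genes. The 9 were the factor genes Tead1, Tead2 and Tead3, Yap1, which encodes their coactivator, the kinase gene Lats2, and the target genes Ccn1, Ccn2, Ankrd1 and Amotl2, while the upstream kinase genes Stk3, Stk4 and Lats1 were in both. The list had 16.04 HP-only regions per Mb and 13.1 MAC-only regions per Mb, where all genes had 2.78 and 13.9. It was the only list of the 20 in which HP-only regions outnumbered MAC-only regions, 27 to 22. Tead1 had a CpG-rich HP-only promoter site of 1300 bp, 5 HP-only regions, 1 shared and 0 MAC-only regions. Ccn1, also known as Cyr61, had 4 HP-only regions and 3 MAC-only regions beyond 2 kb.

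**Figure D5:**
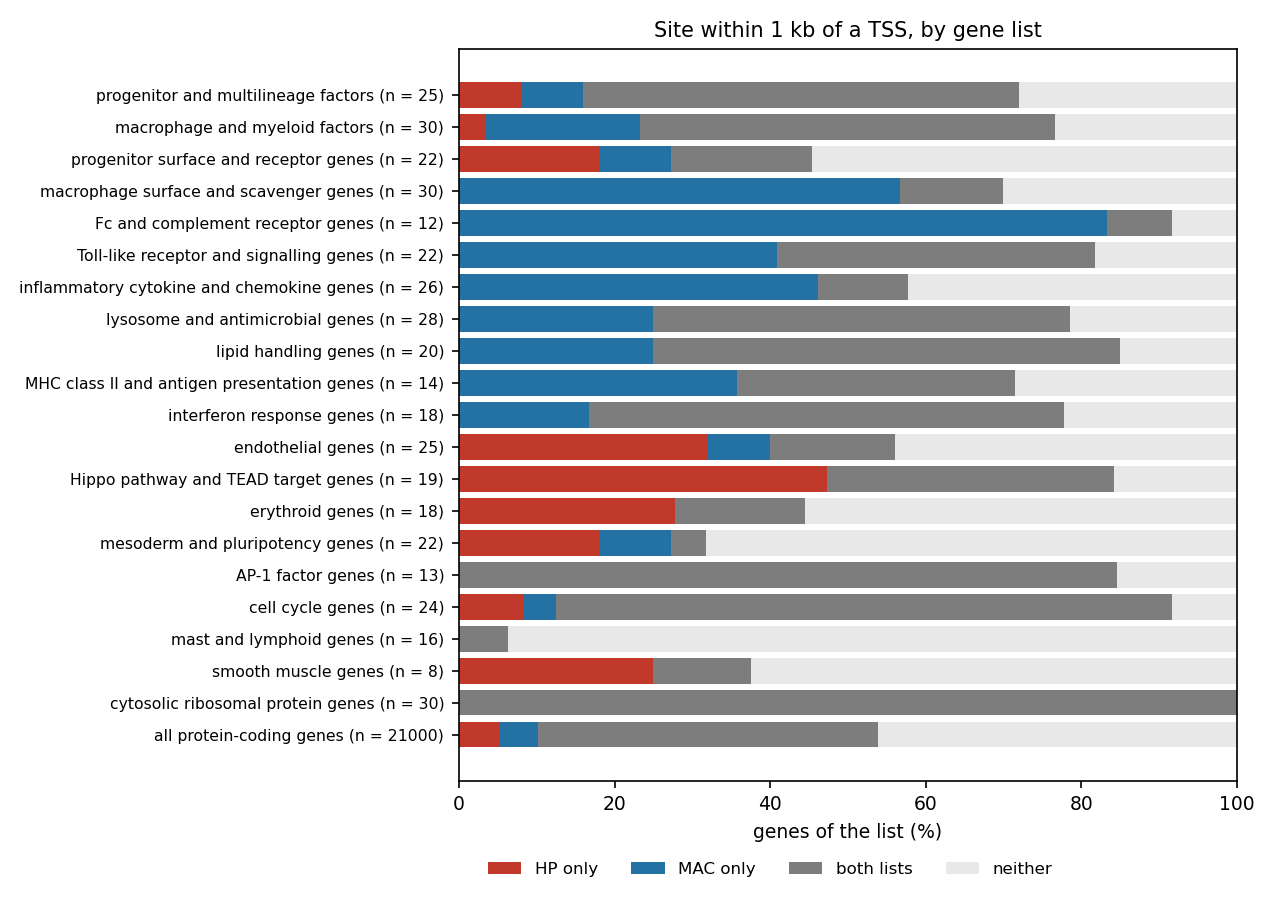
Share of the genes of each of 20 lists, and of all 21000 protein-coding genes, with a site within 1 kb of a TSS in HP only, MAC only, both or neither list (horizontal axis, %). MAC-only promoters are most frequent in the Fc and complement receptor list (10 of 12) and HP-only promoters in the Hippo and TEAD list (9 of 19), against 4.83% and 5.27% of all genes.

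Genes of other lineages also had HP-only promoters. The counts below stand against shares over all genes of 5.27% in HP only, 4.83% in MAC only, 43.7% in both and 46.2% in neither. Endothelial genes were in HP only at 8 of 25 (Tie1, Pecam1, Plvap, Sox17, Etv2, Notch1, Dll4 and Ephb4), in MAC only at 2 and in neither at 11. Erythroid genes were in HP only at 5 of 18, including the embryonic globin gene Hba-x and the membrane skeleton gene Ank1, and in MAC only at 0. The adult globin genes Hba-a1 and Hbb-bt had no listed site, which is uncertain because reads of near-identical globin copies can be lost or misplaced. Progenitor surface and receptor genes were in HP only at 4 of 22 (Itga2b, Kit, Flt3 and Gp1ba), in MAC only at 2 (Cd9 and Ptprc) and in neither at 12. Mesoderm and pluripotency genes were in neither at 15 of 22, in HP only at 4, in MAC only at 2 (Mesp2 and Pdgfra) and in both at 1. Cell cycle genes were in both at 19 of 24, and Myc and Mycn were in HP only, although a shared region lay 1.84 kb upstream of the Myc TSS. AP-1 factor genes were in both at 11 of 13, with 44 MAC-only and 2 HP-only regions around them. Cytosolic ribosomal protein genes were in both at 30 of 30.

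To find the loci that changed most without regard to function, genes were ranked by the regions over 2 and up to 100 kb from their TSS, and the last places of each ranking, which were tied with genes not named, were filled in order of gene symbol. The 10 genes with most MAC-only regions were Lpp (23), Sgms1, Trib1 and Zfp36l2 (18 each), Elmo1 (17), Rbm47 and Tns3 (16 each), Cd44 and Irf8 (15 each) and Arhgef3 (14). Trib1 encodes a pseudokinase that controls C/EBP-alpha, Elmo1 acts in the uptake of dying cells, Zfp36l2 destabilises mRNA and Cd44 encodes the hyaluronan receptor. Of these 10 genes 7 had a promoter site in both lists, 2 (Elmo1 and Rbm47) in MAC only and 1 (Tns3) in neither, and 6 had 0 HP-only regions. The 10 with most HP-only regions were Gse1 (9), Irs2 (8), Mgst2 (7), Ptpn1, Scarb1, Shroom3, Smad1, Smad6 and Zfpm1 (6 each) and Ano6 (5). Smad1 and Smad6 belong to the BMP pathway, and Zfpm1 encodes FOG1, the cofactor of GATA1. Each of these 10 genes also had MAC-only regions, from 2 to 10. Zfpm1 had its 6 HP-only, 2 MAC-only and 3 shared regions within 62.3 kb of sequence nearest to it. The 10 genes with most shared regions included Chd2 (7), Atf7ip and Runx1 (6 each), Actg1, Capn2, Chd9 and Irf2bp2 (5 each) and 1700001O22Rik and Abt1 (4 each). Of the genes ranked by HP-only regions 4 of 10 lay on chromosome 8, on which HP sites over 2 kb from a TSS were 2.07 times as dense as over the other autosomes (MAC 1.45 times), and the part of this in the ranking was not tested. Lists of this kind favour genes with wide surroundings, since the sequence within reach of Lpp was 443 kb and that of Zfpm1 62.3 kb, against a median of 44.8 kb over all genes.

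Most of the widest sites called exclusive lay at promoters, where 26.4% of all HP-only and 8.68% of all MAC-only regions lay. Because windows were set at the middle, so wide a site can overlap a site of the other list and still be called exclusive. Whether each of these did was not looked up. Of the 12 HP-only sites ranked first by width, from 2000 to 2500 bp, 9 had their middle within 2 kb of a TSS, at Actr1a, Lonrf1, Hnrnpu, Smim27, Trir, Ppp1r15a, Atxn2l, Lig4 and Gse1. The widest, of 2500 bp, lay 309 kb from Alkbh8 on chromosome 9. Of the 12 MAC-only sites ranked first, from 1800 to 2100 bp, 7 lay within 2 kb of a TSS, at Ptp4a2, Golga7, Vac14, 6430548M08Rik, Cluh, Ddx39b and Dhrs3, and the widest was intergenic and 26.9 kb from Nanos3. The HP-only sites at Lonrf1, Trir, Lig4 and Gse1 lay on chromosome 8, on which listed sites were denser than over the other autosomes. So did the MAC-only sites nearest to Nanos3, Golga7, Vac14, Cotl1 and 6430548M08Rik.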

How the data were processed

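DNaseI-seq sites were deposited as lists of positions in bp on mm10, 1 list per stage, with no height or count. Per the study's methods, the authors used CutAdapt to trim reads and Bowtie to align them, kept unique alignments, dropped duplicates (Picard) and ran DFilter, with 100 bp bins, as the site caller. The submitters' processing notes also name HOMER, and versions are not given in the sources used here. All widths were multiples of 100 bp, so positions are no finer than that. Depth cannot be read from the lists.

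The HP and MAC lists were compared with Python 3.11.15 and numpy 2.4.6, and figures were drawn with matplotlib 3.10.9. Windows of 500 bp were joined when they overlapped by at least 0.25 of their length. Distances were taken to 25999 curated protein-coding TSSs of 21000 RefSeq genes on GRCm38. Positions were promoter (within 2 kb), proximal (to 20 kb) or distal, and regions were assigned to the nearest gene up to 100 kb. Shares have 95% Wilson intervals and differences have Newcombe intervals, and no tests were made. The scripts were tested on simulated data. The members, gene lists, motifs and markers were chosen with earlier results of these data known. The genes named are those of the gene lists and markers, and the genes ranked first by regions of each class. The genes whose loci are described in detail, and the sequences shown, were chosen after their values were seen. The list symbols Mx1 and Ahsp had no match in the annotation. Some items are not reported here.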

Additional observations from a re-analysis of the deposited data

How the results depend on the processing

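The overlap rule moved most of these shares beyond their counting error. At an overlap of at least 1 bp, 66.3% of HP and 31.4% of MAC regions were shared, the promoter share was 25.05% in HP-only and 8.17% in MAC-only regions, and the CpG-rich share 17.7% and 2.43%. At 250 bp these were 61.3%, 29.0%, 29.9%, 10.0%, 22.3% and 3.98%. With the deposited intervals they were 67.3%, 31.9%, 23.7%, 7.56%, 16.8% and 2.10%, with 64.3% of shared regions CpG-rich. The length and width of the lists mattered more, although in these settings a kept site whose partner was cut counts as exclusive. With the 17730 widest MAC sites (600 bp or wider), 9139 regions were MAC-only, 48.5% of either list was shared, the promoter share was 33.9% in HP-only, 9.66% in MAC-only and 77.6% in shared regions, the CpG-rich share 26.4%, 3.45% and 73.1%, and 2575 genes had an HP-only and 427 a MAC-only promoter. With only the sites no narrower than their list's median (9097 HP and 19108 MAC), 2129 regions were HP-only, 12140 MAC-only and 6968 shared, 76.6% of HP and 36.5% of MAC regions were shared, the promoter shares were 53.7%, 14.8% and 86.8%, and the CpG-rich shares 43.0%, 8.60% and 82.8%. With promoters set at 1 kb the promoter shares were 23.4%, 5.77% and 69.0%, and with the TSSs of all annotated transcripts 36.0%, 15.8% and 76.6%. A stricter definition of CpG-rich gave 15.8%, 2.24% and 57.7%. The E-box of the TAL1 type changed direction among the sites no narrower than their list's median, to a difference of 0.82 points (MAC-only minus HP-only), and the cause was not tested. Of the 7 motifs whose interval held 0, RUNX, SOX, CRE, RBPJ and TCF-LEF changed sign under at least 1 alternative (RUNX from -1.73 to 0.31 points). Apart from these and the TAL1 type of E-box, each motif difference kept its sign under all 9 alternatives, although some moved or lost their call. The CTCF difference ran from -6.10 to -0.53 points and the MYB difference from 0.15 to 1.92, with an interval on the same side of 0 in 8 and 4 of the 9. Leaving out chromosome 8, chosen after seeing the data, gave 65.5% of HP regions shared. No paired analysis was possible because each stage has 1 list. With no replicate and no depth, whether a site missing from a list was absent or below the calling threshold cannot be told apart.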

Other observations

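Listed sites were denser on chromosome 8 than over the other autosomes in all 5 lists of the series, although in HE chromosome 11 was denser still. Over 2 kb from a TSS, HP had 6.27 sites per Mb on chromosome 8 and 3.02 over the other autosomes, and MAC had 15.4 and 10.6. The ratios in MES, HB and HE were 1.90, 1.80 and 1.57. Of the chromosome 8 genes 64.5% had a promoter site in HP, against 40.7% to 57.9% on the other autosomes. Of the HP regions on chromosome 8, 58.1% were also in MAC (55.6 to 60.7). Without it the PU.1 share was 4.51% in HP-only and 14.3% in MAC-only regions, and the GATA share 41.0% and 21.5%. Chromosome 8 was singled out after its values were seen.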
